A study of Mus musculus with 9 samples.

Results

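The genes described are 10 that encode the main building blocks of the vascular basement membrane: Col4a1 and Col4a2 (collagen IV), Lama4, Lama5, Lamb1, Lamb2 and Lamc1 (laminin chains), Nid1 and Nid2 (nidogens) and Hspg2 (perlecan). They were chosen by name from the 46078 genes of the read count table. All 10 were among the 15937 genes that had enough counts to be tested. RNA-seq was done on endothelial cells (ECs) sorted from the bone marrow (BM) of normal wild-type B6 mice as CD45-, Ter119- and CD31+. The gate is meant to remove leukocytes and red cells and to keep cells that carry CD31. The sorted cells were divided by Sca-1, a surface protein carried by arteriolar ECs of the BM, into a Sca-1+ fraction (4 libraries, whose labels end in 7, 13, 15 and 19) and a Sca-1- fraction (5 libraries, whose labels end in 8, 10, 14, 16 and 22). Labels 15 and 16, 1 from each fraction, share a further number. Labels 8, 15, 16 and 19 hold the letters wt. Labels 13, 14 and 22 share a further string, part of which label 10 also holds. The labels explain none of these, and no fit took the letters wt or that string into account. The labels give neither the age of the mice nor whether each library came from its own animal, so p-values measure only the spread between these libraries.

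The basement membrane is the thin protein sheet on the outer face of ECs, laid down by the ECs themselves and by the mural cells around the vessel. Laminins, each made of an alpha, a beta and a gamma chain, form one network and collagen IV, made of alpha chains wound into a triple helix, forms another. Nidogens and the heparan sulphate proteoglycan perlecan join them. Arterioles of the BM have a continuous basement membrane, whereas that of the sinusoids, the wide thin-walled vessels through which blood cells leave the marrow, is known to be discontinuous.

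Stretches of genomic sequence just before the first annotated exons are given for the start sites of genes the results turn on. They come from RefSeq's table of start regions on GRCm38.p6, in which 7 of the 10 genes matched (not Lama4, Lamc1 or Nid2), and each was shortened to leave out annotated exons. Capitals mark GGGCGG, the core letters bound by Sp1-type factors, or its reverse complement CCGCCC. Lama5 and Hspg2 had the lowest levels per kilobase of the 10 genes, and Lamb2 had the highest level of the laminin chains in Sca-1+ ECs. Within the fractions, Nid1 and the Col4a1 and Col4a2 pair followed the mean of the 10 genes, of which they are part, most closely. The Lama5 stretch is chr2:180225860-180226109 on the minus strand. That of Hspg2 is chr4:137468553-137468768 on the plus strand, that of Lamb2 is chr9:108479612-108479735 on the plus strand and that of Nid1 is chr13:13437352-13437550 on the plus strand. The last line is chr8:11312805-11312826, read on the plus strand, the 22 bases that the first exons of Col4a1 and Col4a2 share on opposite strands.
Lama5: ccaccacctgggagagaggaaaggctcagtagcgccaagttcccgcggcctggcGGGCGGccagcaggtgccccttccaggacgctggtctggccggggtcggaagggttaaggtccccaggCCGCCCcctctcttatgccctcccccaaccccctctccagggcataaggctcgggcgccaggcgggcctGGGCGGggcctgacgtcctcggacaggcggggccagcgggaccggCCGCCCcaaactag
Hspg2: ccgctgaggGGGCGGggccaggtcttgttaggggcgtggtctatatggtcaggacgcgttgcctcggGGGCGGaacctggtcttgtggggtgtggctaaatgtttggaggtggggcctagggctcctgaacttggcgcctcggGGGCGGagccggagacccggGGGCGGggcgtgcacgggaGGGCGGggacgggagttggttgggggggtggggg
Lamb2: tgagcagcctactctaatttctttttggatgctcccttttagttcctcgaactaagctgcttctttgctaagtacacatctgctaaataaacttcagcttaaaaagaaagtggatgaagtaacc
Nid1: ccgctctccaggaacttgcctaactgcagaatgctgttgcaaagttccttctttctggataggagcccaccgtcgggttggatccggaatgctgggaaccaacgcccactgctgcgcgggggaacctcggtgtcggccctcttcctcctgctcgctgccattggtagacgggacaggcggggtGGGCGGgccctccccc
Col4a1 and Col4a2 overlap: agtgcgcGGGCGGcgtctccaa

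GGGCGG, on either strand, was found in the whole 300-base window of 6 of the 7 matched genes, with 5 matches in Hspg2, 4 in Lama5 and 0 in Lamb2, and in 35.7% of all 32851 windows of that table. CCAAT, or ATTGG, was found in 4 of the 7 and in 37.4% of all windows, and TATAAA, or TTTATA, in 0 of the 7 and in 13.6%. The G and C content of the 7 windows ran from 44.0% in Lamb2 to 74.0% in Col4a1, beside a median of 52.7% over all windows. A match of letters is a description of the window and not a binding site.

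Sequencing depth was similar in the fractions, with 21581653 to 25959818 counts per library, so that 3 counts, taken as the floor, stood for 0.0996 to 0.209 CPM (counts scaled to library size, with edgeR's TMM factors). Ly6a, which encodes Sca-1, had a mean of 1133 CPM in Sca-1+ ECs (SD 187, n = 4) and of 0.678 CPM in the Sca-1- fraction (SD 0.524, n = 5). Pecam1, which encodes CD31, was at 1399 ± 261 and 836 ± 613 CPM (SD, n = 4 and 5), and Ptprc, which encodes CD45, at 0.843 ± 1.20 and 28.9 ± 14.1 CPM. Transcripts of other cells were unequally spread. The 12 megakaryocyte and platelet genes summed to 28.3 to 79.1 CPM per library in Sca-1+ ECs and 24786 to 104188 CPM in the Sca-1- fraction. The 20 general endothelial genes summed to 11126 to 12857 CPM and 1234 to 4349 CPM, and none was at 0 throughout a fraction. In bulk RNA, fewer cells of a type and less RNA per cell cannot be told apart. The running numbers that open the labels form separate series in the fractions, so a batch that followed them cannot be told apart from the fraction.

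Of the 10 genes, 9 were higher in Sca-1+ ECs and 1, Lamc1, was not called under TMM scaling, whereas 2 were higher and 1 lower with libraries scaled to the 20 endothelial genes, and 0 were higher and 3 lower with Pecam1 and Esam left out of those. In edgeR's quasi-likelihood test with TMM, 0 of the 10 were lower, also at an unadjusted p under 0.05 and with DESeq2 or limma voom. Of all genes tested, 23.3% were higher in Sca-1+ ECs and 21.4% were lower, at an adjusted p under 0.05. The median log2 fold change of the 10 genes was 3.60, beside 0.07 over all genes tested. In the same 9 genes every Sca-1+ library lay above every Sca-1- library, as it did in 24.8% of all genes tested. These values describe 10 genes picked by name with earlier results known and are no test of the list. The plot of the 10 genes by library shows each value.

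**Figure D1:**
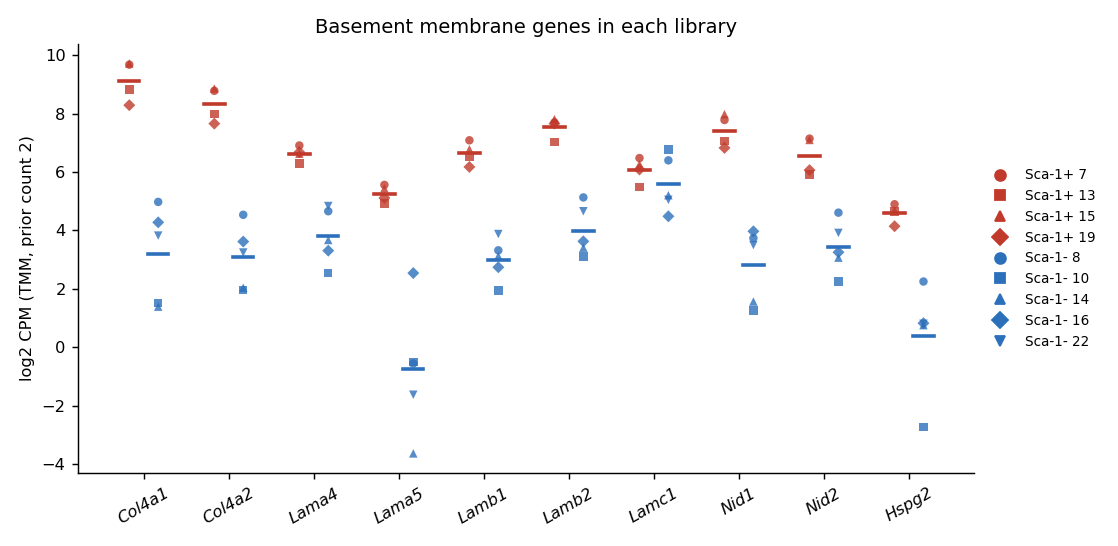
Level of each of the 10 basement membrane genes in each library, as log2 CPM (TMM, prior count 2) on the y axis, with Sca-1+ libraries in red, Sca-1- libraries in blue, one symbol per library and a bar at the mean of each fraction. The fractions are apart in 9 genes and overlap in Lamc1, and in Lama5 the Sca-1- library 16 lies far above the other 4 of its fraction.

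Col4a1 (ENSMUSG00000031502, chromosome 8 from 11198423 to 11312826, minus strand, GRCm38) and Col4a2 (ENSMUSG00000031503, chromosome 8 from 11312805 to 11449287, plus strand) encode the α1 and α2 chains of the collagen IV found in nearly every basement membrane, and lie head to head. The level of Col4a1 was 818, 451, 840.1 and 312 CPM in Sca-1+ libraries 7, 13, 15 and 19. In Sca-1- libraries 8, 10, 14, 16 and 22 it was at 31.4, 2.79, 2.55, 19.3 and 14.1 CPM. The lowest Sca-1+ library, 19, was thus well above the highest Sca-1- library, 8. Col4a1 averaged 605 ± 264 CPM (SD, n = 4) against 14 ± 12.1 CPM (SD, n = 5), a log2 fold change of 5.43 (standard error, SE, 0.80, edgeR's quasi-likelihood adjusted p = 0.000431), the largest of the 10 genes under TMM. Col4a2 was counted at 439, 255, 464 and 202 CPM in the Sca-1+ libraries and 23.1, 3.84, 4.03, 12.2 and 9.41 CPM in the Sca-1- libraries, in the same order. Its libraries ranked nearly as those of Col4a1 did, with 8 highest and 10 and 14 lowest among the Sca-1- libraries. The log2 fold change of Col4a2 was 5.01 (SE 0.59, edgeR's quasi-likelihood adjusted p = 0.00013), from 340 ± 131 to 10.5 ± 7.90 CPM (SD, n = 4 and 5). The shared 22 bases could exchange reads between the pair where counting ignored strand, a small part of exons that total 7464 and 6619 bases.

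Among the laminin alpha chains, which carry the main binding sites for cell receptors, the endothelial chains are α4 (Lama4) and α5 (Lama5). Lama4 (ENSMUSG00000019846, chromosome 10 from 38965515 to 39110188, plus strand) was counted at 120.0, 78.2, 98.7 and 102 CPM in Sca-1+ libraries 7, 13, 15 and 19. In Sca-1- libraries 8, 10, 14, 16 and 22 it was at 25.2, 5.73, 12.7, 9.83 and 28.5 CPM. Its log2 fold change of 2.61 (SE 0.44, edgeR's quasi-likelihood adjusted p = 0.000924) was the smallest of the 9 called genes, and its sign turned under both endothelial scalings. Lama5 (ENSMUSG00000015647, chromosome 2 from 180176373 to 180225859, minus strand) was counted at 47.1, 30.2, 43.4 and 34.5 CPM in the Sca-1+ libraries, and at 0.601, 0.628, 0, 5.74 and 0.244 CPM in the Sca-1- libraries. Library 16 alone held 173 of the Sca-1- reads of Lama5, where the other 4 libraries held 10, 9, 0 and 6. A count of 0 in library 14 allows a level of up to 0.127 CPM, counting error only. The log2 fold change of Lama5 was 4.70 (SE 1.09, edgeR's quasi-likelihood adjusted p = 0.00551), with the widest 95% interval of the 10 genes, 2.29 to 7.12, and without library 16 it was 6.79.

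Lamb1 (ENSMUSG00000002900, chromosome 12 from 31265234 to 31329644, plus strand) and Lamb2 (ENSMUSG00000052911, chromosome 9 from 108479736 to 108490530, plus strand) encode the β1 and β2 chains, one of which joins each of these laminins. Lamb1 was counted at 136, 92.2, 109.8 and 72.2 CPM in Sca-1+ libraries 7, 13, 15 and 19. In Sca-1- libraries 8, 10, 14, 16 and 22 it was at 9.91, 3.77, 8.65, 6.61 and 14.6 CPM. Its log2 fold change was 3.55 (standard error 0.38), and its adjusted p of 7.71e-05 in edgeR's test was the smallest of the 10 genes. Lamb2 was counted at 207, 129.8, 224 and 202 CPM in the Sca-1+ libraries, and at 35.0, 8.52, 10.6, 12.3 and 25.2 CPM in the Sca-1- libraries. Unlike Col4a1, Lamb2 was as high in library 19 as in libraries 7 and 15. Its log2 fold change was 3.38 (SE 0.44, edgeR's quasi-likelihood adjusted p = 0.000219).

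Lamc1 (ENSMUSG00000026478, chromosome 1 from 153218922 to 153332786, minus strand) encodes γ1, the gamma chain of nearly all laminins. It was counted at 89.0, 44.8, 77.0 and 67.8 CPM in Sca-1+ libraries 7, 13, 15 and 19. In Sca-1- libraries 8, 10, 14, 16 and 22 it was at 84.3, 109, 36.8, 22.3 and 33 CPM. The fractions overlapped, with the highest value of all in Sca-1- library 10 and the lowest in Sca-1- library 16. The means were 69.7 ± 18.7 CPM (SD, n = 4) and 57.0 ± 37.4 CPM (SD, n = 5), and the log2 fold change was 0.29 with a 95% interval of -0.72 to 1.30 (adjusted p = 0.629 from edgeR's test). Lamc1 was called higher, at 0.91 (adjusted p = 0.0429 from edgeR's test), when libraries were scaled by their totals alone, and lower, at -2.0 (adjusted p = 0.000219), when they were scaled to the endothelial genes. The Sca-1- libraries with the most Lamc1, 10 and 8, also had the most megakaryocyte and platelet transcripts, 104188 and 84518 summed CPM, and library 16, with the least Lamc1, had the least, 24786. The part of these transcripts in the Lamc1 level was not tested.

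The nidogens join laminin to collagen IV. Nid1 (ENSMUSG00000005397, chromosome 13 from 13437551 to 13512269, plus strand) was counted at 219.8, 133, 252 and 113 CPM in Sca-1+ libraries 7, 13, 15 and 19. In Sca-1- libraries 8, 10, 14, 16 and 22 it was at 13.3, 2.30, 2.88, 15.6 and 11.2 CPM. Libraries 10 and 14 were again the lowest, and the log2 fold change was 4.30 (SE 0.60, edgeR's quasi-likelihood adjusted p = 0.000333). Nid2 (ENSMUSG00000021806, chromosome 14 from 19751265 to 19811787, plus strand) was counted at 141, 60.0, 137 and 66.9 CPM in the Sca-1+ libraries, and at 24.3, 4.68, 8.32, 9.46 and 15 CPM in the Sca-1- libraries. Here library 8 stood highest in its fraction, and the log2 fold change was 3.03 (SE 0.48, edgeR's quasi-likelihood adjusted p = 0.00069). An exon of Rtraf on the opposite strand overlaps 437 bases of Nid2 exons, and Rtraf was at 53.9 ± 6.54 and 33.3 ± 8.91 CPM in the fractions (SD, n = 4 and 5), so some Nid2 reads are uncertain where counting ignored strand. Nid1 shares 143 exon bases with the antisense gene Gm48682.

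Perlecan, the product of Hspg2 (ENSMUSG00000028763, chromosome 4 from 137468769 to 137570630, plus strand), holds growth factors through its heparan sulphate chains and links the networks. Hspg2 was counted at 29.7, 25.0, 25.6 and 17.6 CPM in Sca-1+ libraries 7, 13, 15 and 19. In Sca-1- libraries 8, 10, 14, 16 and 22 it was at 4.69, 0.0698, 1.61, 1.69 and 1.67 CPM. The value in library 10 was 1 count, under the floor, whereas library 8 held 78 counts. Its log2 fold change was 3.65 (SE 0.71, edgeR's quasi-likelihood adjusted p = 0.00213).

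To compare the genes with each other, CPM was divided by the length of each gene's merged exons in kilobases. In Sca-1+ ECs the median level per kilobase fell from Col4a1 (85 CPM per kb) over Col4a2 (52.4), Lamb2 (33.7), Nid1 (25.4), Nid2 (19.7), Lamb1 (10.2), Lamc1 (8.75), Lama4 (8.33) and Lama5 (3.42) to Hspg2 (1.77). In this order the ranges of neighbouring genes over the 4 libraries overlapped except between Lama4 and Lama5, at 6.48 to 9.94 against 2.66 to 4.14 CPM per kb, and between Lama5 and Hspg2, the latter at 1.23 to 2.08 CPM per kb. Read within each Sca-1+ library, Col4a1 lay above Col4a2, Lamb2 above Nid1, Nid1 above Nid2 and Nid2 above Lamb1 throughout. The order turned for Col4a2 and Lamb2 and for Lamb1 and Lamc1 in library 19. It turned for Lamc1 and Lama4 in libraries 13 and 19. In the Sca-1- fraction the order was another. Lamc1 stood first (4.45 CPM per kb), followed by Lamb2 (2.02), Col4a1 (1.89), Nid2 (1.83), Nid1 (1.62), Col4a2 (1.42), Lama4 (1.05), Lamb1 (0.873), Hspg2 (0.117) and Lama5 (0.0527). There the ranges of all neighbours overlapped except those of Lamb1, at 0.380 to 1.47 CPM per kb, and Hspg2, at 0.00488 to 0.327 CPM per kb. Within each Sca-1- library Lama4 lay above Lamb1, whereas the other neighbours with overlapping ranges changed order in some library.

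The makeup of the laminin transcripts was described as the share of each of the 5 chains in their summed CPM per kilobase, a measure that no library scaling alters and that was chosen after the levels were seen. Lamc1 took 13.5 ± 1.15% (SD, n = 4) in Sca-1+ ECs and 53.4 ± 19.9% (SD, n = 5) in the Sca-1- fraction, with ranges of 12% to 14.8% and 33.3% to 85% that do not overlap. Lamb2 took 50.7 ± 4.18% and 25.0 ± 10.1%, with ranges of 47.0% to 55.2% and 9.07% to 34.5%. Lama4 took 13.5 ± 1.14% and 11.8 ± 5.94%, and Lamb1 took 16.9 ± 3.70% and 8.15 ± 4.13%. Lama5 took 5.53 ± 0.36% in Sca-1+ ECs and 1.67 ± 3.28% in the Sca-1- fraction, where library 16 was at 7.53% and the others between 0% and 0.357%. Shares sum to 100% within a library, so a higher share of 1 chain lowers those of the others.

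**Figure D2:**
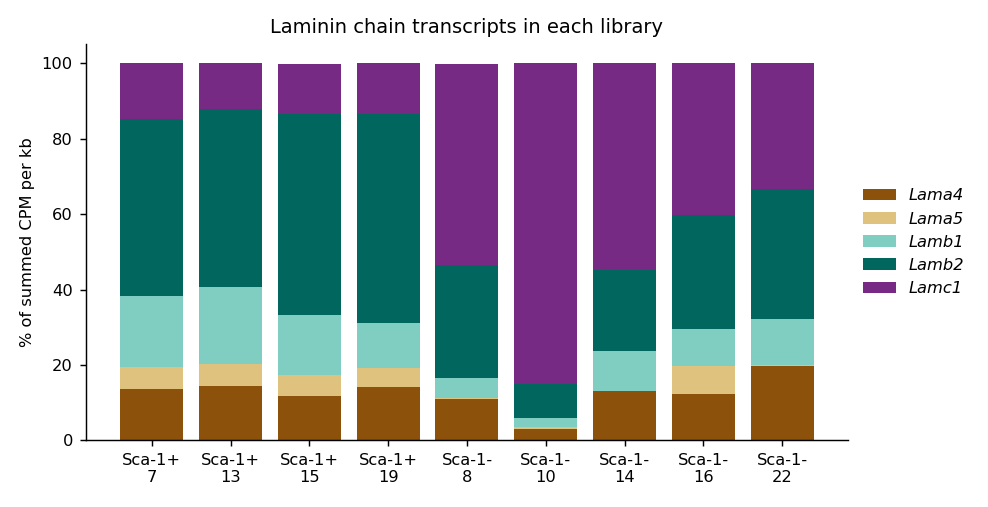
Share of each laminin chain gene in the summed CPM per kb of the 5 chains (y axis, %) in each of the 9 libraries (x axis), with 1 colour per gene. The 4 Sca-1+ libraries are alike, with Lamb2 the largest share and Lamc1 at 12% to 14.8%, whereas Lamc1 takes 33.3% to 85% of the Sca-1- libraries.

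Ratios between related chains within a library also do not depend on scaling, and 4 of them were compared between the fractions by an exact permutation test, two-sided, over every way to divide the 9 libraries into 4 and 5 (smallest possible p = 0.0079). Nid1 exceeded Nid2 in counts in every Sca-1+ library (log2 ratio 0.86 ± 0.22, SD, n = 4) and fell below it in 4 of 5 Sca-1- libraries (-0.62 ± 0.85, SD, n = 5). The difference of 1.48 had an exact p of 0.024 and 0.095 after Benjamini-Hochberg adjustment over the 4 ratios, so it did not pass the correction. Col4a1 exceeded Col4a2 in each Sca-1+ library, at a log2 ratio of 0.80 ± 0.12 (SD, n = 4), and in 3 of 5 Sca-1- libraries, at 0.11 ± 0.62 (SD, n = 5). The difference of 0.69 had an exact permutation p of 0.056, adjusted 0.11. For Lama4 over Lama5 the log2 ratio was nearly the same in each Sca-1+ library, 1.37 ± 0.16 (SD, n = 4), and ran from 0.77 in library 16 to 9.23 in library 14 of the Sca-1- fraction, where the count of Lama5 was 0 and the added count of 0.5 sets the value. Its difference of -3.67 had an exact permutation p of 0.087, adjusted 0.12. The beta chain ratio, Lamb1 over Lamb2, averaged -0.90 ± 0.45 (SD, n = 4) and -0.99 ± 0.56 (SD, n = 5), a difference of 0.08 (exact permutation p = 0.82, adjusted 0.82). Without Sca-1- library 16, the only one of its fraction with Nid1 above Nid2, the first 3 of these differences were 1.81, 0.83 and -4.74, each with an adjusted exact p of 0.038. That library was picked out for its values. Leaving out any of the other 8 libraries in turn gave adjusted exact p-values of 0.11 to 0.19 for these 3 ratios, and leaving out libraries 16 and 19 together gave 0.11 for each.

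**Figure D3:**
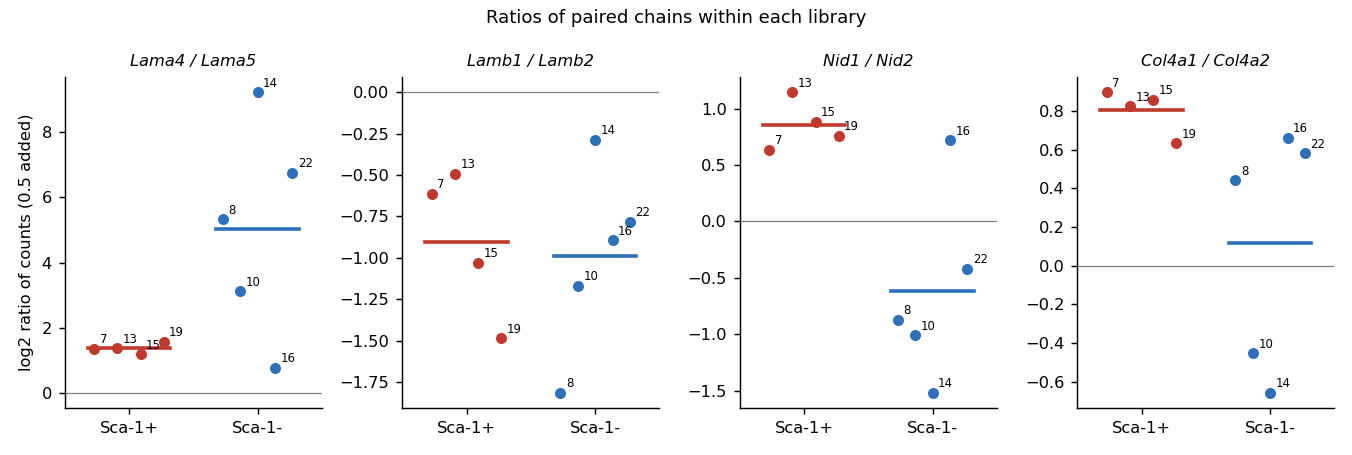
The log2 ratio of counts (0.5 added to each) of 4 pairs of related chain genes in each library, with the Sca-1+ libraries in red, the Sca-1- libraries in blue, end numbers beside the points and bars at the fraction means; the y axes differ between panels. Sca-1- library 16 lies among the Sca-1+ values for Nid1 over Nid2 and for Col4a1 over Col4a2 and below them for Lama4 over Lama5.

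Within the fractions the 10 genes did not vary alike. The deviation of each gene's log2 CPM from its fraction mean was set beside the mean deviation of the 10 genes over the 9 libraries, as a description in which each gene is part of the mean. Pearson's r was 0.98 for Col4a1, 0.98 for Col4a2, 0.947 for Nid1, 0.908 for Nid2, 0.847 for Lamb2 and 0.778 for Hspg2. It was 0.722 for Lama4, 0.65 for Lamb1, 0.423 for Lama5 and -0.0763 for Lamc1. The mean deviation was highest in library 7 (0.38) and library 15 (0.31) and lowest in library 13 (-0.35) and library 19 (-0.35) among Sca-1+ ECs. It ran from -1.04 in library 10 to 1.06 in library 8 in the Sca-1- fraction. In Sca-1- libraries 8, 10, 14, 16 and 22, the 14 stromal and osteoblast genes summed to 45235, 10302, 3810, 21077 and 19131 CPM. They were thus also highest in library 8 and lowest in 10 and 14. In Sca-1+ libraries 7, 13, 15 and 19 they summed to 3342, 756, 1733 and 2533 CPM, another order than that of the mean deviation. The part of stromal transcripts in the mean deviation was not tested. Of 9857 other genes compared, those most like the mean of the 10 were Plcg1 (r = 0.968), which encodes a phospholipase C, Prox1 (0.963), a transcription factor gene, Mmp14 (0.957), which encodes a membrane-bound matrix protease, Bgn (0.955), the gene of the matrix proteoglycan biglycan, and Fkbp10 (0.953), the gene of a collagen chaperone. Of these 5, Plcg1 was itself called higher in Sca-1+ ECs (log2 fold change 2.10, adjusted p = 0.000475 from edgeR's test), and the 4 others were not called.

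The other structural proteins of the basement membrane were read from a list of 30 genes, 22 of which were tested. Of these, 10 were higher in Sca-1+ ECs, 0 were lower and 12 were not called (4 higher and 6 lower with the endothelial scaling), with a median log2 fold change of 1.44 (0 lower also at an unadjusted p under 0.05 and with DESeq2 or limma voom), beside 23.3% higher and a median of 0.07 over all genes tested. Vwa1, which encodes a partner of perlecan, was at 240 ± 33.6 and 5.62 ± 3.28 CPM in the fractions (SD, n = 4 and 5), a log2 fold change of 5.41 (adjusted p = 2.36e-05 from edgeR's test). Egfl7, the gene of a protein that ECs secrete into their matrix and also a member of the endothelial list, was counted at 959.6 ± 341 CPM and 34.5 ± 17.2 CPM, a log2 fold change of 4.80 (adjusted p = 6.12e-05). Exons of other genes overlap those of Vwa1 on the opposite strand, so some of its reads are uncertain where strand was ignored. Egfl7 shares 264 exon bases with Gm20532 and 73 with Mir126a on its own strand, so some of its reads are uncertain also where strand was used. The collagens XVIII and XV, which sit at the basement membrane's edge, changed less, with log2 fold changes of 2.50 for Col18a1 (adjusted p = 0.00474 from edgeR's test) and 2.23 for Col15a1 (adjusted p = 0.022). Papln had 0 counts in all 5 Sca-1- libraries and 4.90 CPM in Sca-1+ ECs, at least 33.1-fold higher against a floor of 3 counts per library, and the list's median was 1.44 also with Papln at that bound. The chain genes that replace the usual ones in other tissues were low: Col4a3 and Col4a5 averaged 2.35 and 1.70 CPM in Sca-1+ ECs, and Col4a4, Col4a6, Lama1 and Lamb3 had too few counts to be tested (these genes, Papln and Sparc were picked after their values were seen). Sparc, which encodes a collagen-binding glycoprotein, was the most abundant gene of the list, at 5904 ± 2172 and 2586 ± 2201 CPM (SD, n = 4 and 5), with overlapping fractions (log2 fold change 1.19, adjusted p = 0.136 from edgeR's test).

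Genes for the folding, modification and crosslinking of collagen IV were read from a list of 22, with 21 tested. In Sca-1+ ECs 11 were higher, 1 was lower and 9 were not called (1 higher and 14 lower with the endothelial scaling), with a median log2 fold change of 1.28, beside 23.3% higher, 21.4% lower and a median of 0.07 over all genes tested. Pxdn, the gene of the peroxidase that crosslinks collagen IV, was at 108 ± 27.1 and 2.92 ± 2.17 CPM in the fractions (SD, n = 4 and 5), a log2 fold change of 5.20 (adjusted p = 0.00063 from edgeR's test). Colgalt2, which encodes a collagen galactosyltransferase, was counted at 28.8 ± 5.14 CPM and 1.26 ± 2.44 CPM, with 3 of 5 Sca-1- libraries at 0 (log2 fold change 4.54, adjusted p = 0.0219). The smallest called changes were those of P4hb, a subunit of the collagen prolyl hydroxylase that also acts on many other secreted proteins (log2 fold change 0.76, adjusted p = 0.0107 from edgeR's test), and of Mia3, which encodes a factor for loading collagen into transport vesicles and was the one gene called lower (-1.13, adjusted p = 0.00868). Mia3 was at 27.7 ± 4.83 and 60.5 ± 21.8 CPM in the fractions (SD, n = 4 and 5).

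Cell surface receptors of the basement membrane were read from a list of 20 and all were tested. In Sca-1+ ECs 9 were higher, 2 were lower and 9 were not called (3 higher and 11 lower with the endothelial scaling), with a median log2 fold change of 0.98, beside 23.3% higher, 21.4% lower and a median of 0.07 over all genes tested. Mcam, a laminin α4 binding adhesion molecule, was at 141 ± 33.2 and 2.72 ± 1.74 CPM in the fractions (SD, n = 4 and 5), a log2 fold change of 5.67 (adjusted p = 3.07e-05 from edgeR's test). Bcam, a receptor of laminin α5, was counted at 419 ± 162 CPM and 9.61 ± 8.57 CPM, a log2 fold change of 5.44 (adjusted p = 0.000164). The 2 genes called lower were integrin alpha subunits. Itga6, a laminin receptor subunit carried by ECs and also by platelets, was counted at 216 ± 56.7 CPM and 2526 ± 2066 CPM, and fell by 3.54 on the log2 scale (adjusted p = 0.00159 from edgeR's test). Itga2, a collagen receptor subunit carried by platelets too, was counted at 5.27 ± 2.02 CPM and 28.6 ± 15.8 CPM, and fell by 2.44 (adjusted p = 0.00261). The share of megakaryocyte and platelet transcripts in these 2 differences was not tested. The plot of fold changes by gene list shows all tested genes.

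**Figure D4:**
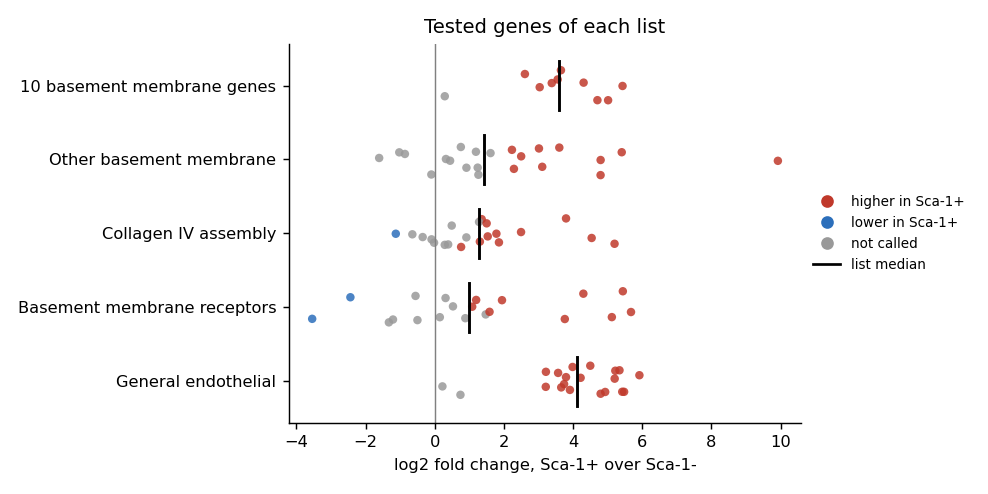
Log2 fold change, Sca-1+ over Sca-1- (x axis, edgeR with TMM), of each tested gene in 5 lists (y axis, spread vertically for legibility), coloured by call at an adjusted p under 0.05, with a black bar at the list's median. The 10 genes (median 3.60) lie between the general endothelial genes (median 4.10) and the other lists (medians 0.98 to 1.44), the point beyond 9 is Papln, whose Sca-1- counts are all 0, and with libraries scaled to the endothelial genes 2 of the 10 genes are called higher and 1 lower.

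The general endothelial genes differed between the fractions as well, so the 10 genes were also read relative to them. Of the 20 endothelial genes, 18 were higher in Sca-1+ ECs, beside 23.3% of all genes tested. Their median log2 fold change was 4.10. With libraries scaled to the summed counts of those 20 genes, the median log2 fold change of all genes tested became -2.61. Col4a1 at 2.71 and Col4a2 at 2.35 were still called higher, Lamc1 at -2.0 was called lower, and the other 7 were not called, from -0.10 for Lama4 to 1.63 for Lama5. Pecam1 and Esam, however, which platelets also express, made up 19.5% to 25.0% of the counts of that list in Sca-1+ libraries and 51.7% to 93.8% in Sca-1- libraries. Without both, a scaling added after the values were seen, the median of all genes was -4.25. Then 0 of the 10 were higher in edgeR's test, also at an unadjusted p under 0.05, with Col4a1 at 1.24 (adjusted p = 0.0724), while Lama4 at -1.57, Nid2 at -1.21 and Lamc1 at -4.33 were called lower. The values were also set against the median of all genes under the same scaling. Under TMM and these 2 scalings, Col4a1 then lay at 5.36, 5.31 and 5.48 and Lama4 at 2.53, 2.51 and 2.68. Lamc1 lay at 0.22, 0.60 and -0.08. A scaling moves all genes by similar amounts, so subtracting the median largely undoes it. The likeness of these values across scalings follows from that and is no test.

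**Figure D5:**
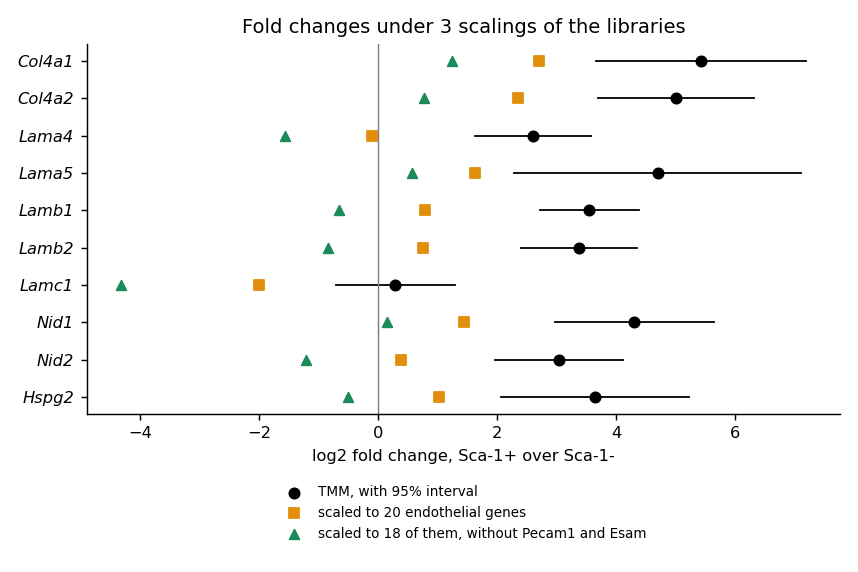
Log2 fold change, Sca-1+ over Sca-1- (x axis), of the 10 genes (y axis) with TMM scaling (black, with the 95% interval), with libraries scaled to 20 general endothelial genes (orange) and with Pecam1 and Esam left out of those (green). All values move left with the endothelial scalings, by which Lama4 and Lamc1 change sign in both, Lamb1, Lamb2, Nid2 and Hspg2 in the last only, and Col4a1, Col4a2, Lama5 and Nid1 in neither.

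Mural cells also make basement membrane, and their markers moved with the fraction too. The counts called in the lists that follow stand beside 23.3% higher in Sca-1+ ECs and 21.4% lower over all genes tested. Of 12 smooth muscle and pericyte genes, 8 were higher in Sca-1+ ECs, 1 (Mylk, named after its value was seen, like Lyve1 of the sinusoidal list) was lower and 3 were not called. Their summed level was 715 to 1783 CPM in the Sca-1+ libraries and 242 to 540 CPM in the Sca-1- libraries, none of the 12 being at 0 throughout a fraction. Mylk, which goes the other way, made up 86.1% of the Sca-1- sum, and without it the other 11 genes summed to 687 to 1671 CPM in the Sca-1+ libraries and 20.3 to 97.5 CPM in the Sca-1- libraries. The highest of these Sca-1- values was in library 16, which also had the most Lama5. Within Sca-1+ ECs the sum, with or without Mylk, was highest in library 19, which had the lowest Col4a1, Col4a2 and Nid1, and lowest in library 13. The arterial list (10 of 10 genes higher) summed to 1715 to 2218 CPM in Sca-1+ ECs and 36.8 to 84.2 CPM in the Sca-1- fraction. The sinusoidal list (7 of 8 higher, Lyve1 lower) summed to 1032 to 1985 CPM and 58.5 to 240.2 CPM, where Lyve1 made up 54.7% of the Sca-1- sum, and to 1031 to 1981 CPM and 19.9 to 156 CPM without it. The 14 stromal and osteoblast genes, of which 2 were higher and 3 lower, summed to 756 to 3342 CPM and 3810 to 45235 CPM. Col1a1, called lower, made up 61.1% of the Sca-1- sum. Without it the other 13 genes summed to 728 to 3161 CPM and 1782 to 17667 CPM, ranges that overlap. Cxcl12, called higher, made up 43.8% of the Sca-1+ sum (both named after their values were seen). The 10 leukocyte genes (8 lower of 9 tested) summed to 118 to 195 CPM and 1718 to 3283 CPM. Lcp1, the tested gene that was not called, made up 88.2% of their Sca-1+ sum, and the other 9 summed to 4.32 to 53.5 CPM and 1676 to 3248 CPM. The 10 erythroid genes (7 lower) summed to 104 to 233 CPM and 618 to 2401 CPM. The part of any of these cells in the levels of the 10 genes was not tested.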

How the data were processed

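Libraries of 4 Sca-1+ and 5 Sca-1- BM EC samples were made, per the labels, from 2 ng of total RNA with a full-length, poly(A)-primed cDNA kit that adds no molecular identifiers. The authors deposited whole-number read counts per gene, not normalized, for all 9 libraries, and the submitters' processing notes name STAR, featureCounts and mm10. Their versions, the annotation and the use of strand are not given in the sources used here. Groups came from the labels, and all columns of the table were used.

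Counts were fitted in R 4.3.3 with edgeR 4.0.16 (filterByExpr, TMM factors, quasi-likelihood F-test, two-sided, no covariates). The filter's minimum count was 10 per library, taken as CPM at the median library size. It had to be met in at least as many libraries as the smaller fraction holds. The minimum total was 15 counts per gene. P-values were adjusted by Benjamini-Hochberg over all 15937 genes tested, with a threshold of 0.05. The common biological coefficient of variation was 0.549. The fit was first tested on simulated data. Levels are CPM on TMM-scaled library sizes, and intervals are 95%. The floor was set at 3 counts per library and covers counting error only because PCR copies are counted. Exon lengths, gene positions and overlaps were read from GENCODE M21 (GRCm38), which held 45229 of the 46078 deposited identifiers. No pair of libraries of a fraction agreed within sampling noise (chi-square per degree of freedom 36.8 to 538).

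The 10 genes and all gene lists were chosen with earlier results of these data known. Beside the 10 genes and 3 checks of the sort (Ly6a, Pecam1 and Ptprc), the rule for naming genes took up to 2 called genes with the largest and 2 with the smallest log2 fold change of each of 3 lists, where the average log2 CPM reached 3, and the 5 genes most like the mean of the 10. No end number occurs in both fractions, but the labels of libraries 15 and 16 share a further number, for which that pair was fitted as a block. Libraries 7 with 8, 13 with 14 and 15 with 16 were tried as pairs, whose deviations correlated at 0.147, 0.148 and 0.042. All other pairings of a Sca-1+ with a Sca-1- library lay between -0.191 and 0.065. The first 2 pairs were thus above that range and 15 with 16 was within it. Alternatives changed the scaling, the filter, the test (DESeq2 1.42.0, limma 3.58.1 voom), the block and the libraries. Python 3.11.15 and matplotlib 3.10.9 drew the plots.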

Additional observations from a re-analysis of the deposited data

Results flagged for a closer look

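Of 60 groups of libraries checked for a value far from the others, 2 held one, where chance gives about 1 in 20. The share of Lama5 among the laminin chains was 7.53% in Sca-1- library 16, with the 4 others of the fraction between 0% and 0.357%. The summed level of the arterial endothelial list was 5.20 on the log2 CPM scale in Sca-1- library 10, with the 4 others between 6.14 and 6.40.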

How the results depend on the processing

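Leaving out each library in turn left 9 of the 10 genes higher and 0 lower each time, with 3098 to 3708 of all genes higher and 2859 to 3577 lower, and the log2 fold change of Lamc1 at 0.02 to 0.59. It gave 9 to 13 other basement membrane genes higher and 0 lower, 10 to 13 collagen IV assembly genes higher and 1 lower, and 7 to 9 receptor genes higher and 2 to 3 lower. The chain ratio differences ran from -4.74 to -2.62 for Lama4 over Lama5, -0.12 to 0.28 for Lamb1 over Lamb2, 1.25 to 1.81 for Nid1 over Nid2 and 0.50 to 0.83 for Col4a1 over Col4a2. Lamb1 over Lamb2 changed sign without Sca-1+ library 7 (-0.013), Sca-1+ library 13 (-0.053) or Sca-1- library 8 (-0.12). Scaling to the endothelial genes, and the same without Pecam1 and Esam (the latter chosen after seeing the data), moved every count: the 10 genes to 2 and 0 higher and 1 and 3 lower, all genes to 446 and 226 higher and 11742 and 14081 lower, other basement membrane genes to 4 and 3 higher and 6 and 14 lower, assembly genes to 1 and 0 higher and 14 and 18 lower, and receptors to 3 and 2 higher and 11 and 14 lower. Under these scalings Lama4 was at -0.10 and -1.57 and Lamc1 at -2.0 and -4.33, and under the last Lamb1 was at -0.65, Lamb2 at -0.85, Nid2 at -1.21 and Hspg2 at -0.51. The libraries' endothelial counts set these shifts by construction. Scaling by library totals alone shifted the median of all genes to 0.43 and left 0 assembly genes lower, and no filter on low counts gave 1 other basement membrane gene lower. Without libraries 16 and 19, chosen after seeing the data, 7 assembly genes were higher. No end number occurs in both fractions. With consecutive end numbers as a replicate block (6 libraries), 9 of the 10 genes stayed higher and all genes gave 2265 higher and 2075 lower; the same 6 libraries without the block gave 8 and 7 assembly genes higher, with Lama5 at 4.21 (adjusted p = 0.0548 from edgeR's test). For chain ratios 3 pairs allow no p below 0.25. DESeq2, limma voom, the robust fit, upper-quartile and DESeq2 size factors and a block of libraries 15 and 16, whose labels share a further number, each left the 9 genes higher.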
